A study of Mus musculus with 8 samples.

Results

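Transforming growth factor beta (TGF-beta) signalling was described in cells of renin lineage (CoRL) through 9 genes: the ligands Tgfb1, Tgfb2 and Tgfb3, the receptors Tgfbr1 and Tgfbr2, the intracellular mediators Smad2, Smad3 and Smad7, and the induced matrix gene Tgfbi. Members were taken as every array probe whose platform symbol was one of these 9 names. The search found 13 probes for 8 genes, out of 23978 named probes and 16593 genes on the array. No probe carried the symbol Smad7, which was not analysed here. In 4 day 5 samples against 4 uninjured samples, Tgfbi and Tgfbr1 rose, Tgfbr2 was higher in every day 5 sample but missed the threshold as a gene, and none of the ligands or SMADs passed the test.

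The mice carried Ren1cCre×Rs-ZsGreen-R, in which Cre driven from the renin locus switches on the fluorescent protein ZsGreen permanently, so a sorted cell need not express renin at the time of the sort. Injured mice (4) received 2 intraperitoneal doses of sheep anti-glomerular antibody, 24 h apart and each of 12 mg/20 g, a model of focal segmental glomerulosclerosis (FSGS) that depletes podocytes, and were killed 5 days after dose 2. Uninjured mice (4) were of matched age and received no antibody, so the antibody, the podocyte loss and the elapsed time cannot be told apart. ZsGreen cells were sorted from digested kidney cortex, and their RNA was amplified and hybridised to 1-colour Illumina MouseRef-8 bead arrays, 1 array per sample.

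TGF-beta ligands are made by many cell types and are stored outside the cell in a latent complex that must be opened before they can signal. An active ligand binds the type II receptor (Tgfbr2), which recruits and phosphorylates the type I receptor (Tgfbr1), and this kinase phosphorylates Smad2 and Smad3, which enter the nucleus with Smad4. Smad7 is induced by the pathway and turns the receptors off. In the kidney the pathway is known for driving matrix deposition and scarring, and it also acts on leukocytes.

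The arrays were not of equal quality. Between 5793 and 12052 probes per array were detected (detection p under 0.01), with the lowest number in uninjured replicate 1, and between 11153 and 11700 were detected on the day 5 arrays. Spearman correlations between arrays lay between 0.772 and 0.947. Among the 4 day 5 samples, replicate 3 had the lowest mean level of macrophage and monocyte markers (8.92, against 7.08 to 7.74 in the uninjured samples and up to 10.5 on day 5). For Tgfbr1, Tgfbr2, Tgfbi and the counts of called genes, fits without day 5 replicate 3, and without it and uninjured replicate 1, are given. They are not given for every other gene. Over all genes, limma called 312 higher and 63 lower on day 5 at a Benjamini-Hochberg adjusted p of at most 0.01, which is 1.88% and 0.38% of the 16593 genes tested. This split depended on scaling, being 719 higher and 38 lower with median scaling and 579 higher and 446 lower with scaling to the 75th percentile. Levels below are log2 values after background correction and quantile normalization, and a difference is day 5 minus uninjured on that scale. Probes differ in how well they bind, so a brighter probe need not mean more RNA, and no difference in abundance between genes was read from levels of different probes.

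The labelled cell type was checked against its markers. Of 18 renin and smooth muscle cell markers, 14 were measured, with a median difference of 0.073. At 0.01, 0 were called, beside 1.88% of all genes higher and 0.38% lower. At 0.05, 1 was higher (Des, 1.53, limma adjusted p = 0.0490) and 0 lower, beside 8.55% and 5.8% of all genes. Rgs5 and Acta2, both genes of mural cells, were detected on all 8 arrays, whereas Pdgfrb, Tagln and Cnn1 were detected on none, and no probe carried the symbol Ren1 or Akr1b7. Proximal tubule markers were also present, with mean levels of 10.3 to 10.6 in the uninjured samples and 7.89 to 9.96 on day 5.

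**Figure D1:**
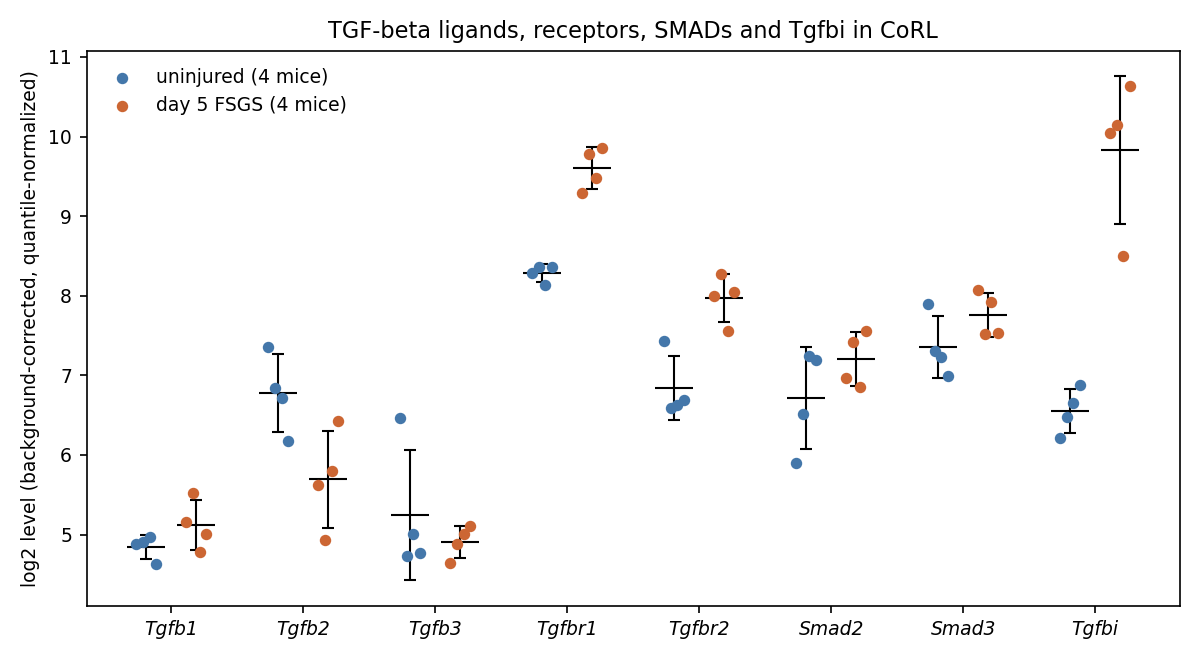
The plot shows the log2 level of the 8 measured genes (vertical axis) in each of 4 uninjured and 4 day 5 FSGS samples (points), with mean and SD (black bars). The groups separate for Tgfbr1, Tgfbr2 and Tgfbi and overlap for the other 5 genes.

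Of the 8 measured members, 2 were called higher (Tgfbr1 and Tgfbi) and 0 lower, beside 1.88% and 0.38% of all genes. At an adjusted p of at most 0.05 the count was 3 higher and 0 lower, beside 8.55% and 5.8% of all genes. For 3 members every day 5 sample lay above every uninjured sample, and for 0 members below, against 10.4% and 9.6% of all genes. By probe, 6 of 13 were called higher, beside 1.93% of all probes. Without day 5 replicate 3 the call was made for 3 genes, and without any other single array for 0. The count over all genes moved too, to 1898 without day 5 replicate 3 and to at most 38 without any other single array. The median difference over the 8 genes was 0.45, and over all genes it was -0.033. In total, 4 of the 8 members were detected on all 8 arrays (Tgfbr1, Tgfbr2, Smad3 and Tgfbi) and 2 on none (Tgfb1 and Tgfb3). With these bulk samples, more or fewer cells of a type cannot be told apart from more or less RNA per cell.

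The ligands came first. Tgfb1, the ligand most often linked to fibrosis, had 1 probe, which was at log2 levels of 4.88, 4.91, 4.97 and 4.63 in the uninjured samples and 5.16, 5.53, 4.78 and 5.00 on day 5. It was not well above background on any array, so no fold is given. The difference was 0.27 (SE 0.17, 95% interval -0.11 to 0.65, limma adjusted p = 0.317), and the groups overlapped. With scaling to the 75th percentile in place of quantile normalization the sign turned (-0.22).

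Tgfb2, a ligand with roles in development of the kidney, had 1 probe with levels of 7.36, 6.85, 6.72 and 6.17 in the uninjured samples and 5.62, 4.93, 5.80 and 6.42 on day 5. It was the only member other than Tgfb3 with a lower mean on day 5. The highest day 5 sample, replicate 4, lay above the lowest uninjured sample, also replicate 4. It was detected on 3 of 4 uninjured and 1 of 4 day 5 arrays, and the uninjured array that missed the detection threshold was replicate 1, which had the highest level. The mean was 6.77 ± 0.49 (SD, n = 4) against 5.69 ± 0.61 (SD, n = 4), a difference of -1.08 (SE 0.34, 95% interval -1.86 to -0.30) with a limma adjusted p of 0.0700, which missed the threshold. Over the alternatives tried it stayed below 0 and not called, between -1.32 and -0.36, with adjusted p between 0.0154 and 0.189. Without uninjured replicate 1 the difference was -0.89 (limma adjusted p = 0.138).

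Tgfb3 also had 1 probe, detected on no array. Its levels in the uninjured samples were 6.46 (replicate 1), 4.74, 5.01 and 4.77, and on day 5 they were 4.65, 4.88, 5.00 and 5.10. The difference of -0.34 (SE 0.37, limma adjusted p = 0.595) turned to 0.070 when uninjured replicate 1, the high value, was left out.

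Of the receptors, Tgfbr1 rose, and Tgfbr2 rose by 1 of its 2 probes. Tgfbr1, the type I receptor kinase, had 4 probes, and their mean was at 8.29, 8.36, 8.13 and 8.36 in the uninjured samples and 9.29, 9.78, 9.47 and 9.86 on day 5. The lowest day 5 sample lay well above the highest uninjured one. Group means were 8.29 ± 0.11 (SD, n = 4) and 9.60 ± 0.26 (SD, n = 4), and the difference of 1.31 (SE 0.14, 95% interval 0.99 to 1.64) was a 2.48-fold rise with a limma adjusted p of 0.00370. Ranked by rise, Tgfbr1 was number 639 of 16593 genes, and by p it was number 51. Leaving out any 1 array other than day 5 replicate 3 kept the difference between 1.23 and 1.42 but took the adjusted p above 0.01, to at most 0.0180. Without day 5 replicate 3 it was 0.00129, and without that array and uninjured replicate 1 it was 0.00317.

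All 4 Tgfbr1 probes were higher in every day 5 sample than in any uninjured one. The brightest, probe 2, had deposited signals of 773.5, 834.4, 566.5 and 842.2 in the uninjured samples and 2132.3, 2253.6, 1829.3 and 1609 on day 5. Its day 5 samples were tightly grouped after normalization, at 10.70 ± 0.07 (SD, n = 4), and it rose by 1.31 (SE 0.12, limma adjusted p = 0.00260). Probe 4 rose by 1.26 (SE 0.15, limma adjusted p = 0.00463). Probe 1 rose by 1.72 (SE 0.28, limma adjusted p = 0.00989) from a level at which 1 of 4 uninjured arrays detected it. Probe 3, with a difference of 0.96 (SE 0.22, limma adjusted p = 0.0253), was not called. Whether the probes of a gene differed in their change was tested in 8 pairs (6 for Tgfbr1, 1 for Tgfbr2 and 1 for Tgfbi). The smallest exact permutation p was 0.0286, the smallest that 4 against 4 samples allow, and its value adjusted over the 8 pairs was 0.114. It was reached by Tgfbr1 (change of probe 1 minus that of probe 3, 0.75) and Tgfbr2 (probe 1 minus probe 2, -0.70). With that limit the adjusted value could hardly pass, so agreement between the probes was not shown.

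Tgfbr2, the ligand-binding type II receptor, had 2 probes of unequal brightness. As a gene it was at 7.44, 6.59, 6.63 and 6.69 in the uninjured samples and 8.00, 8.27, 7.56 and 8.04 on day 5. The groups did not overlap, with uninjured replicate 1 the highest of its group and day 5 replicate 3 the lowest of its own. The difference was 1.13 (SE 0.23, 95% interval 0.62 to 1.65) with a limma adjusted p of 0.0178, which missed the 0.01 threshold. With the brightest probe of each gene in place of the mean over probes, the adjusted p was 0.00387. It also passed in the authors' processed values (0.00670), with the Bayesian test of the methods (0.00448), without day 5 replicate 3 (0.00601), and without that array and uninjured replicate 1, where the difference was 1.47 (0.00076). Leaving out the lowest day 5 sample or the highest uninjured one had to widen the difference, so the fits without them add no support. Tgfbr2 lost the 0.05 threshold as well without uninjured replicate 2 (0.0518), without day 5 replicate 1 (0.0511), without day 5 replicate 2 (0.0589) and with the methods' test for unequal variances (0.102).

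The bright Tgfbr2 probe, probe 2, had deposited signals of 538.5, 479.8, 382.3 and 448.5 in the uninjured samples and 1356.9, 1574.5, 999.2 and 1005.6 on day 5. No day 5 signal was below 999.2. After normalization it rose by 1.48 (SE 0.16, 95% interval 1.11 to 1.85), which is 2.79-fold, with a limma adjusted p of 0.00403. Probe 1 was detected on 0 of 4 uninjured and 3 of 4 day 5 arrays, and its difference of 0.78 (SE 0.30, limma adjusted p = 0.127) was not called.

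**Figure D2:**
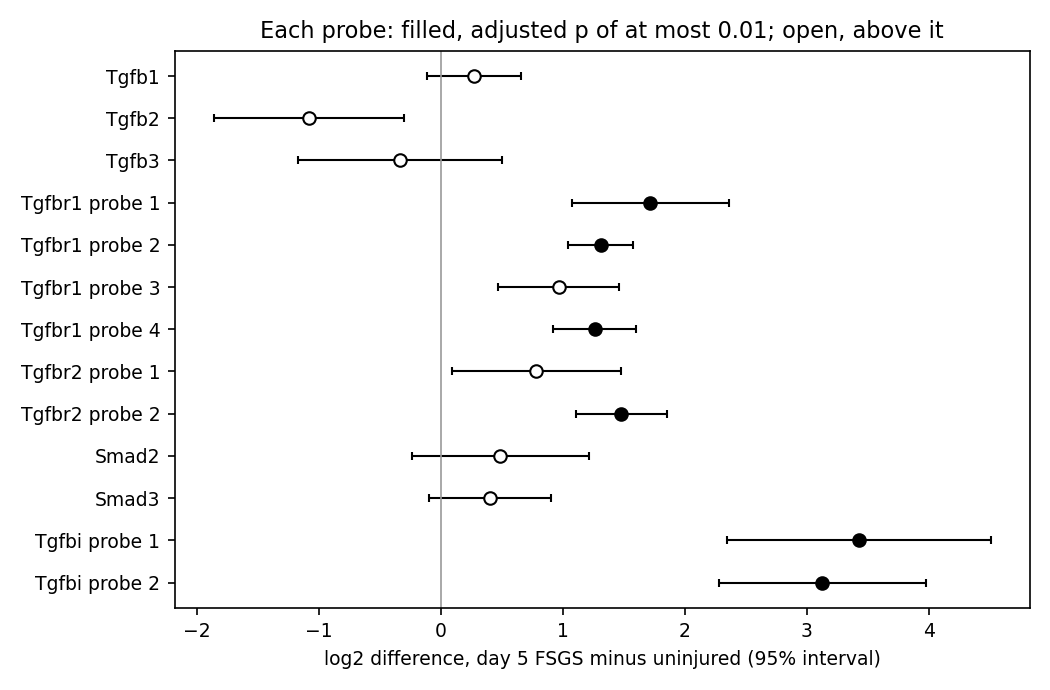
Each point is the log2 difference of 1 probe, day 5 FSGS minus uninjured (horizontal axis), with its 95% interval from limma, for the 13 probes of the 8 genes. The 6 filled points, for Tgfbr1, Tgfbr2 and Tgfbi, have an adjusted p of at most 0.01 over all probes.

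Neither receptor-regulated SMAD passed the test. Smad2 had 1 probe at 5.89, 6.51, 7.25 and 7.19 in the uninjured samples and 6.97, 7.41, 6.86 and 7.56 on day 5, and 2 of 4 uninjured arrays detected it. Smad3 had 1 probe, detected on every array, at 7.90, 7.30, 7.23 and 6.99 in the uninjured samples and 8.07, 7.52, 7.92 and 7.53 on day 5. For both genes the uninjured samples reached into the day 5 range. The difference was 0.49 for Smad2 (SE 0.32, 95% interval -0.24 to 1.21, limma adjusted p = 0.348). For Smad3 it was 0.40 (SE 0.22, 95% interval -0.090 to 0.90, limma adjusted p = 0.254). Both intervals include 0 and also rises of close to 0.90 or more, so a rise of that size could not be told from no change with 4 samples a group. Arrays measure RNA, and the phosphorylation through which both proteins act was not measured.

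Tgfbi, which encodes a secreted matrix protein named for its induction by TGF-beta, had the largest difference among the members. Over its 2 probes it was at 6.22, 6.47, 6.65 and 6.88 in the uninjured samples and 10.05, 10.15, 8.49 and 10.64 on day 5. The groups were far apart, and day 5 replicate 3 was the lowest of its group. The mean went from 6.56 ± 0.28 (SD, n = 4) to 9.83 ± 0.93 (SD, n = 4), a rise of 3.28 (SE 0.42, 95% interval 2.32 to 4.24) or 9.69-fold, with a limma adjusted p of 0.00577. By size of rise it was number 6 of 16593 genes.

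Probe 2 of Tgfbi was detected on all arrays and had deposited signals of 359.8, 350.4, 330.2 and 394.7 in the uninjured samples and 2829.1, 3048.3, 1080.7 and 3230.8 on day 5. Day 5 replicate 3 was thus at 1080.7, still above every uninjured sample. The probe rose by 3.13 (SE 0.37), which is 8.74-fold, with a limma adjusted p of 0.00463. Probe 1, detected on 1 of 4 uninjured arrays, rose by 3.43 (SE 0.47, limma adjusted p = 0.00660). Without day 5 replicate 3 the gene's rise was 3.72 with an adjusted p of 0.000161, and without that array and uninjured replicate 1 it was 3.61. Leaving out day 5 replicate 3, the lowest of its group, had to enlarge the rise. Leaving out any other single array kept a rise of 3.01 to 3.38 but took the adjusted p above 0.01, to at most 0.0261. In the authors' processed values the rise was 2.09.

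The genes whose levels were most like those of Tgfbi over the 8 samples, among 6975 genes that every array of at least 1 group detected, were Ctsc (r = 0.996), Alox5ap (r = 0.996), Tlr2 (r = 0.996), Batf (r = 0.995) and Mrc1 (r = 0.995). Ctsc encodes a lysosomal protease, Alox5ap a partner of leukotriene synthesis, Tlr2 a receptor for bacterial lipopeptides, Batf a transcription factor of lymphoid and myeloid cells, and Mrc1 the macrophage mannose receptor. Because the 8 points form 2 groups, these correlations are a description of a shared difference between groups. For Tgfb1 the nearest genes were Foxred2, Rnps1, Rragc, H2bc7 and Sema4d (r between 0.909 and 0.938), but Tgfb1 was not well above background on any array.

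Markers of other cell types moved with these results. Their counts called at 0.01 stand beside 1.88% of all genes higher and 0.38% lower. Of 22 macrophage and monocyte markers 17 were measured, and 10 were called higher and 0 lower, with a median difference of 2.59. At 0.05, 16 were higher and 0 lower, beside 8.55% and 5.8% of all genes. At 0.01 and without day 5 replicate 3, 16 were called higher, and without any other single array 0. Of all genes, 1898 were called without day 5 replicate 3 and at most 38 without any other single array. The mean level of these markers was 7.08 to 7.74 in the uninjured samples and 8.92, the value of replicate 3, to 10.5 on day 5. Day 5 replicate 3 was also the lowest of its group for Tgfbi and for fibroblast (5.82), T, B and NK cell (6.05) and platelet (5.93) markers. It was the highest of its group for proximal tubule (9.96), endothelial (7.89) and podocyte (8.29) markers. Among the macrophage and monocyte markers, the chemokine receptor gene Cx3cr1 rose by 3.32 (SE 0.33, limma adjusted p = 0.00340) and the complement gene C1qa by 3.05 (SE 0.38, limma adjusted p = 0.00576), both chosen after their values were seen. None of the 17 was undetected on all arrays. Fibroblast markers had a mean level of 4.97 to 5.62 in the uninjured samples and 5.82 to 6.69 on day 5. Of these 10 genes 0 were called and 5 were higher at 0.05, and Lum, Mfap5 and Postn were detected on no array. T, B and NK cell markers, of which 12 of 14 were measured, had a mean level of 5.00 to 5.77 in the uninjured samples and 6.05 to 6.73 on day 5, and 1 was called (Cd3g). At 0.05, 4 of them were higher. Of the 17 proximal tubule markers 14 were measured and 1 was called lower (Slc22a12), with a median difference of -1.23. At 0.05, 5 were lower, and for 9 every day 5 sample lay below every uninjured one, beside 9.6% of all genes. Endothelial markers had 0 of 14 called and a median difference of 0.56, and platelet markers 0 of 6. Of 5 measured podocyte markers 1 was called (Ptpro, 1.82 higher), and the median difference was 0.12. The others were not called, with Cdkn1c (1.20) and Podxl (0.12) higher and Wt1 (-0.16) and Clic5 (-0.45) lower. Among the day 5 samples Ptpro was lowest in replicate 3 (6.69), where the podocyte marker mean was highest. At 0.05, 1 endothelial, 1 podocyte and 1 platelet marker were higher, and 1 platelet marker was lower. The part of any of these cell types in the differences of Tgfbi, Tgfbr1 and Tgfbr2 was not tested.

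**Figure D3:**
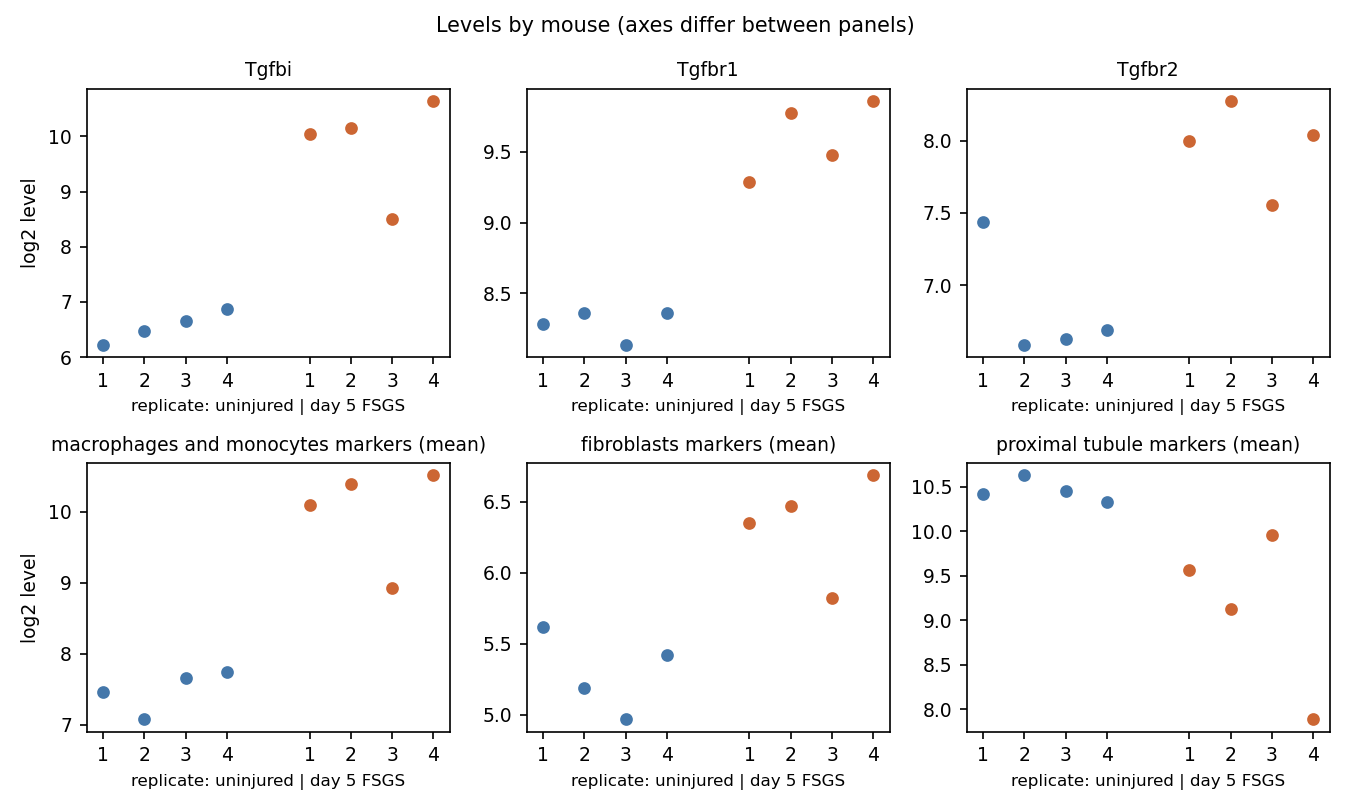
Log2 levels (vertical axes, which differ between panels) of Tgfbi, Tgfbr1 and Tgfbr2 and the mean levels of 3 marker lists in each of 4 uninjured (blue) and 4 day 5 FSGS samples (orange). Day 5 replicate 3 is the lowest of its group for Tgfbi (8.49) and Tgfbr2 (7.56), but not for Tgfbr1. It is also the lowest for the macrophage and monocyte markers (8.92) and the fibroblast markers (5.82), and the highest for the proximal tubule markers (9.96).

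The 3 genes that separated the groups are shown by their promoters, to let the starts of genes that moved together be compared. RefSeq windows (GRCm38.p6) of 300 bases, 250 before and 50 after an annotated start, were found for 6 of the 9 members. Capitals mark matches, on either strand, to CAGAC, a core bound by SMAD proteins (GTCTG on the other strand), and to GGGCGG, the box bound by Sp1 (CCGCCC on the other strand), 2 motifs that can overlap each other by 1 base. The window of Tgfbi is chr13:56609336-56609635 on the plus strand, that of Tgfbr1, the first of 2 for this gene, is chr4:47352972-47353271 on the plus strand, and that of Tgfbr2 is chr9:116175314-116175613 on the minus strand.
Tgfbi: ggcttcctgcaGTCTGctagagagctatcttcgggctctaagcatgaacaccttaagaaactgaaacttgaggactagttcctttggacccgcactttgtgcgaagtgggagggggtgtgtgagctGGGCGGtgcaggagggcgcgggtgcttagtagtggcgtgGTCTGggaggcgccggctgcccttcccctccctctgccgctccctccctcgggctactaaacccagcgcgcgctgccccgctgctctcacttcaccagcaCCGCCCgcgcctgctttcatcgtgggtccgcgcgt
Tgfbr1: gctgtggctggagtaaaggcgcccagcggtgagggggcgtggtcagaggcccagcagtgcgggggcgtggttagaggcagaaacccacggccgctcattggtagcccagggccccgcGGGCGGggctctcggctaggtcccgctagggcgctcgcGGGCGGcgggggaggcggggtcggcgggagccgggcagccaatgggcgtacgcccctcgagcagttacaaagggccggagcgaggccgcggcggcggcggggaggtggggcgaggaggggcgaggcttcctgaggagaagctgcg
Tgfbr2: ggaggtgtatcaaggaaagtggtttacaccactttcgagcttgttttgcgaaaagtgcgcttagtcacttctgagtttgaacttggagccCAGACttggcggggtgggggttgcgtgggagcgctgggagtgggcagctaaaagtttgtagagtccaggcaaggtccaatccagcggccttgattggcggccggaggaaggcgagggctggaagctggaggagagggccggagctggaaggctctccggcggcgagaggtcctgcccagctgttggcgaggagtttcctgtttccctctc
CAGAC occurred 2 times in the Tgfbi window, 1 time in that of Tgfbr2 and 0 times in the printed window of Tgfbr1, and 49.6% of all 32851 windows held at least 1 match. GGGCGG occurred 2 times each in the printed windows of Tgfbi and Tgfbr1 and 0 times for Tgfbr2, against 35.7% of all windows with a match. The other annotated start of Tgfbr1 (chr4:47385966-47386265, plus strand) has a window with 1 match to CAGAC and 0 to GGGCGG and a GC content of 52%. Among the members whose groups overlapped, CAGAC occurred 2 times in the window of Tgfb2 and 0 times in those of Tgfb1 and Smad3. The GC content was 63.3% for Tgfbi, 74.7% for the printed window of Tgfbr1 and 59% for Tgfbr2, beside a median of 52.7% over all windows. A match is a run of letters and was not tested as a site.

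Other genes of the pathway were counted by role. Of 13 genes for latency and activation 11 were measured, with 1 called higher and 0 lower, beside 1.88% and 0.38% of all genes. The called gene was Nrros, which anchors latent TGF-beta on macrophages and microglia. It was at 6.29, 6.05, 5.95 and 6.11 in the uninjured samples and 7.95, 8.27, 7.32 and 8.12 on day 5, again with day 5 replicate 3 lowest, and rose by 1.81 (SE 0.20, 3.52-fold, limma adjusted p = 0.00413). As with Tgfbi, leaving out any array but day 5 replicate 3 took it above 0.01 (to at most 0.0218). At the looser threshold of 0.05, 8.55% of all genes were higher and 5.8% lower. There the integrin genes Itgb6 (-1.57, adjusted p = 0.0215) and Itgb8 (-1.39, adjusted p = 0.0183) were lower and Ltbp3 was higher (0.48, adjusted p = 0.0142). Integrins of these 2 beta chains can release the ligand from its latent complex, and Ltbp3 tethers latent TGF-beta to matrix. These genes, like the others of these lists except the brightest of each, were named after their values were seen.

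The counts called at 0.01 in the next 4 lists stand beside 1.88% of all genes higher and 0.38% lower. Of 11 co-receptors and related receptors 0 were called, and the brightest, the BMP receptor Bmpr2, differed by 0.050 (SE 0.15). Genes that passed at 0.05 only are given here beside the 8.55% of all genes that were higher and the 5.8% that were lower at 0.05. Eng, a co-receptor of endothelium, passed at 0.05 only (0.80, adjusted p = 0.0307) and was not well above background on any uninjured array. None of the 8 measured of 9 other SMADs and partners was called. The shared SMAD, Smad4, was at 9.80 ± 0.15 (SD, n = 4) and 9.97 ± 0.19 (SD, n = 4), a difference of 0.16 (SE 0.13, limma adjusted p = 0.438), while the acetyltransferase gene Ep300 passed at 0.05 (1.18, adjusted p = 0.0156) and so did Smad1, a mediator of BMP signals (0.44, adjusted p = 0.0482). Of 13 inhibitors of signalling 12 were measured and 0 called, and the receptor-binding Strap differed by 0.020 (SE 0.16). The nuclear repressors Skil (0.99, adjusted p = 0.0210) and Tgif1 (1.08, adjusted p = 0.0186) were higher at 0.05, as were Smurf1 and Dcn, and Nedd4l was lower. Smurf1 and Dcn were not well above background on any uninjured array. For Dcn, which is also on the fibroblast list, this gives a rise of at least 1.27-fold. Of 18 activin, BMP and GDF ligands and their antagonists 15 were measured and 0 called. The BMP ligands Bmp4 (-1.13, adjusted p = 0.0176), Bmp6 (-1.16, adjusted p = 0.0273) and Bmp7 (-1.16, adjusted p = 0.0165) were lower at 0.05, Inhbb passed in the other direction but was detected on no array of either group, and Fstl1 differed by 0.41 (SE 0.30).

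Of 30 genes known to respond to TGF-beta in other cells 23 were measured. At 0.01, 0 passed, beside 1.88% of all genes higher and 0.38% lower. The 23 genes had a median difference of 0.19, beside -0.033 over all genes. At 0.05, 4 were higher and 0 lower, beside 8.55% and 5.8% of all genes. They were the intermediate filament gene Vim (2.21, adjusted p = 0.0156), the cell cycle inhibitor Cdkn1a (1.16, adjusted p = 0.0202) and the fibrillar collagen genes Col1a1 (1.60, adjusted p = 0.0427) and Col3a1 (1.71, adjusted p = 0.0450). Of these, Col1a1 was not well above background on any uninjured array, which gives a rise of at least 1.15-fold, and Col1a1 and Col3a1 are also on the fibroblast list. Among those that passed neither threshold, Id2, the brightest, differed by -0.085 (SE 0.10, adjusted p = 0.627) and the smooth muscle actin gene Acta2 by 0.42 (SE 0.23, adjusted p = 0.255), and Tagln, Cnn1, Postn, Lox, Junb and Cdkn2b were detected on no array.

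**Figure D4:**
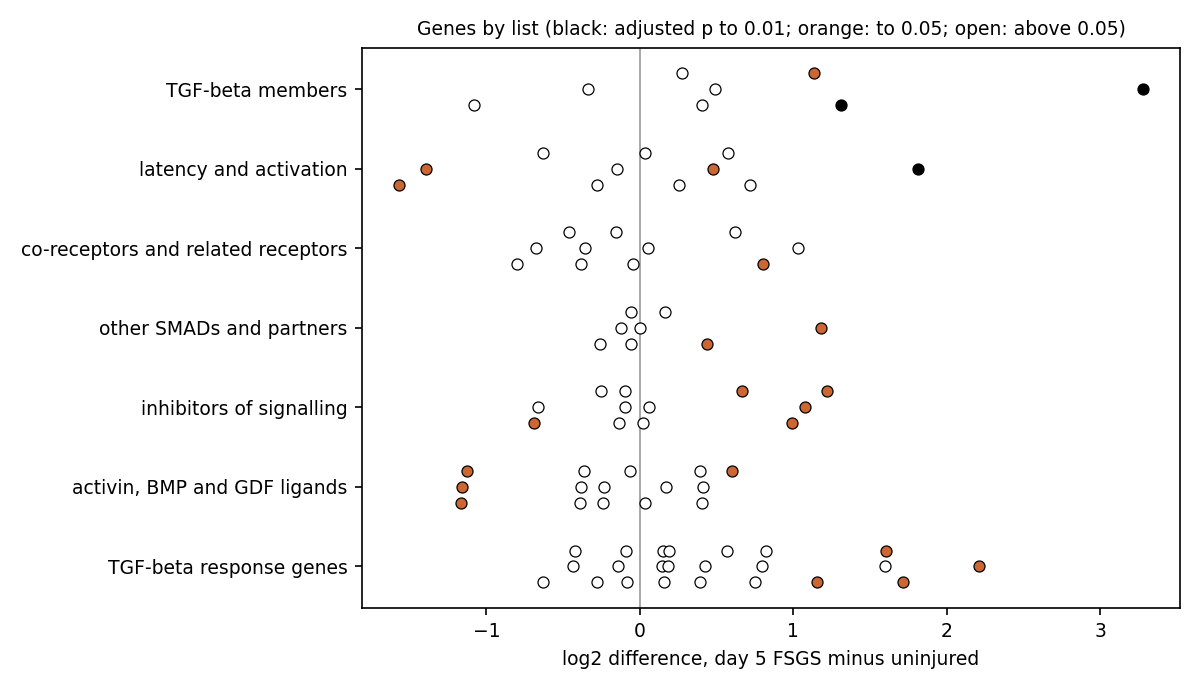
Each point is the log2 difference of 1 gene, day 5 FSGS minus uninjured (horizontal axis), for the 8 measured members and the 6 other lists (rows). Black points passed at 0.01 (Tgfbi, Tgfbr1 and Nrros), orange points passed at 0.05 only, and open points passed neither.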

How the data were processed

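Members, gene lists and tests were chosen with earlier results of these data known. The deposited table holds, per bead probe, a non-normalized signal intensity and a detection p-value for each of 8 arrays (25697 probes, of which 1719 have no symbol in the platform annotation and were left out of tests). A second deposited table holds processed values in signal units, which the authors made with lumi (version not given) by variance stabilization and quantile normalization. The authors' genome build is not given in the sources used here. The deposited signals were background-corrected with normexp fitted from the deposited detection p-values (offset 16), quantile-normalized and taken as log2 (limma 3.58.1, R 4.3.3). All named probes were tested with lmFit and eBayes over the 8 arrays without covariates, singly and averaged per gene, with Benjamini-Hochberg adjustment over all 23978 probes or 16593 genes, and called at adjusted p of at most 0.01. Intervals are 95% intervals. Replicates are separate mice, and 4 arrays per group limit the precision. Single values per sample were compared by two-sided exact permutation (70 arrangements). A probe counted as detected at detection p under 0.01. Where no array of a group detected a gene, a bound or no fold is given. Named genes were all members and, per pathway list, up to 3 called genes of largest difference or else the brightest gene, plus the 5 genes most correlated with Tgfbi and with Tgfb1. Gene names matched RefSeq for 16582 genes. Alternatives covered background correction, scaling, the authors' processed table, a detection filter, the brightest probe, variance models, array weights, the Bayesian test of the methods (CyberT), the methods' t-test, a replicate block, a threshold of 0.05, and leaving out arrays. The fits were tested on simulated data. Drawings used matplotlib.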

Additional observations from a re-analysis of the deposited data

Results flagged for a closer look

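Of 74 groups of 4 values examined for a sample lying apart by Dixon's criterion at 95%, 6 were picked out, where chance alone gives about 1 in 20. In 5 of the 6 the sample was uninjured replicate 1, on which 5793 probes were detected, the lowest number of the 8 arrays. It was high for Tgfb3 (6.46, next 5.01), for Tgfbr2 (7.44, next 6.69), for Tgfbr2 probe 2 (8.81, next 8.39) and for Fstl1 (9.13, next 8.18), and low for Smad4 (9.58, next 9.87). The last was day 5 replicate 4, high in the mean of other SMADs and partners (6.60, next 6.49). The part of array quality in these values was not tested.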

How the results depend on the processing

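Of the members, 2 genes and 6 probes were called in the fit as reported. With an offset of 50 the count was 1 gene. With the methods' t-test with unequal variances it was 0 genes and 0 probes, at which 0 of all genes were called too. Replicate numbers were shared between groups, but same-numbered samples did not deviate together (correlations -0.091 to 0.11), and with the replicate block 0 member genes and 0 probes were called, as were 0 of all genes. Leaving out 1 array gave 0 to 3 genes and 0 to 6 probes, the most without day 5 FSGS replicate 3, and 3 genes and 7 probes were called without that array and uninjured replicate 1. Over all genes, where 375 were called as reported, the count was 204 with offset 50, 495 without background correction, 757 with median scaling (median difference over all genes -0.18), 1025 with 75th percentile scaling (-0.52), 425 in the authors' processed table, 1004 with the detection filter, 418 with the brightest probe, 660 with trended robust variances, 1439 with array weights, 1629 with the Bayesian test of the methods, 2381 at 0.05, 0 (without day 5 FSGS replicate 1) to 1898 (without day 5 FSGS replicate 3) with 1 array left out, and 1716 without uninjured replicate 1 and day 5 FSGS replicate 3. Tgfbr1, Tgfbr2, Tgfbi and Nrros kept their direction under every alternative tried. Directions that turned all belonged to genes that were not called. They were Tgfb1 with 75th percentile scaling (-0.22), Id2 with median scaling (0.12), Bmpr2 and Strap with array weights (-0.075 and -0.11), and Tgfb3 (0.039) and Strap (-0.15) without uninjured replicate 1 and day 5 FSGS replicate 3. With 1 array left out, Tgfb3 ranged from -0.50 to 0.070, Strap from -0.088 to 0.12 and Bmpr2 from -0.033 to 0.17. Why the counts move was not tested. Signal over background limits Tgfb1, Tgfb3 and the dim probes of Tgfbr1, Tgfbr2 and Tgfbi.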
